A study of Mus musculus with 47 samples.

Results

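Label uptake in undifferentiated P19 cells was followed in 15 of the 47 SLAM-seq libraries of the series. They are the 12 anabolic libraries labeled Undifferentiated, 3 each at time points T0, T1, T3 and T9, and the 3 catabolic T0 libraries of the same state. P19, derived from a mouse embryonal carcinoma, is pluripotent and differentiates into neurons under retinoic acid, and undifferentiated cells (D0) were wild type and grown in serum without retinoic acid. SLAM-seq feeds cells the uridine analog 4sU, which is built into newly made RNA, and after alkylation each 4sU is read as a C in place of a T, so that the T>C conversion rate counts new RNA.

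D0 cells received 20 µM 4sU. The labels give the anabolic time points as 0, 1, 3 and 9, and the methods of the study give them as 0, 3, 6 and 9 h of labeling, so that T1, T3 and T9 are used below as names. T0 cells received no 4sU and measure the background. The catabolic T0 cells, called 15 h below, received 4sU for 15 h with a fresh dose 3 h before the end, and serve as the reference for the maximum label of each transcript. The methods also give this labeling as 13 h in 1 place. The D6 cells used for comparison had 6 days of retinoic acid in neuronal medium and 500 µM 4sU. The series calls the replicates biological but nothing says that they were separate cultures, so that p-values measure the spread between libraries, which may be technical.

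Rates were computed per RefSeq mRNA transcript as conversions over covered T positions in its 3′ UTR (mm10). Of 28190 mRNA transcripts, 14258 averaged 1000 or more covered T positions over the 15 libraries and were tested for a gain of label. The anabolic libraries held between 5499405 and 11677046 reads on distinct 3′ UTR intervals and the 15 h libraries between 3447888 and 4783742. The RNA matched the label of the cells. All 10 embryonal carcinoma markers had a median over the 15 libraries above 1 CPM (reads scaled to library size). Their summed level was 2375 to 3422 CPM in the 15 libraries and 320 to 644 CPM at D6. Of 10 neuronal markers 8 had a median above 1 CPM, and all were summed at 423 to 608 CPM against 6122 to 7667 CPM at D6. Of 4 mesoderm markers 2 had a median above 1 CPM (summed 13.2 to 75.3 CPM), and none of 5 endoderm markers did. Gata4 and Gata6 reached 4.30 and 4.64 CPM in their highest library, while Sox17 and Afp were at 0 in all 15 libraries. Whether these reads came from other cells, and what part such cells had in the results, was not tested.

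When cells are given 4sU, old unlabeled mRNA is replaced by new labeled mRNA. At a constant level, the speed of this replacement is set by how fast the mRNA is degraded and diluted as cells divide, so that short-lived mRNAs approach their final label early and stable mRNAs late. Short-lived mRNAs in mammalian cells typically encode transcription factors, immediate early genes and cell cycle regulators, and long-lived mRNAs typically encode ribosomal proteins and enzymes of energy metabolism.

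The overall conversion rate rose between T1 and T3 and again to T9. At T0 the 3 libraries had 0.152%, 0.200% and 0.137% of covered T positions converted, and at T1 0.152%, 0.150% and 0.153%. The T1 values lay within the range of T0. At T3 the rates were 0.565%, 0.543% and 0.540%, at T9 1.22%, 1.22% and 1.31%, and at 15 h 1.39%, 1.49% and 1.38%. From T1 on, no library of a time point overlapped with those of the next. The mean was 0.163% ± 0.0334 (SD, n = 3) at T0, 0.152% ± 0.00129 at T1, 0.549% ± 0.0138 at T3, 1.25% ± 0.0509 at T9 and 1.42% ± 0.0628 at 15 h. T3 was 3.37-fold above T0, T9 2.27-fold above T3, and 15 h 1.14-fold above T9. By two-sided exact permutation tests, p was 0.9 for T0 against T1 and 0.1 for each of the other 3 steps, the smallest value that 3 against 3 libraries allow (adjusted p = 0.133 over 4 comparisons). After subtraction of the T0 mean, D0 cells had reached 30.7% of the 15 h label at T3 and 86.3% at T9.

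The same course was seen in reads. A conversion was carried by 3.87% ± 0.601 of reads (SD, n = 3) at T0, 3.73% ± 0.0312 at T1, 12.2% ± 0.309 at T3, 25% ± 0.0405 at T9 and 27.8% ± 0.0421 at 15 h. Much of the T0 signal came from few transcripts. The 1708 transcripts with a T0 rate over 0.4% held 55.5% of the T0 conversions, while the median transcript had 0.0210%. Over the 9859 transcripts with at most 0.1% in D6 cells without 4sU, a set chosen after seeing the data, the mean was 0.0640% ± 0.00853 at T0 and 0.0682% ± 0.00253 at T1. In this set, too, the T0 and T1 libraries overlapped (exact permutation test, p = 0.7).

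**Figure D1:**
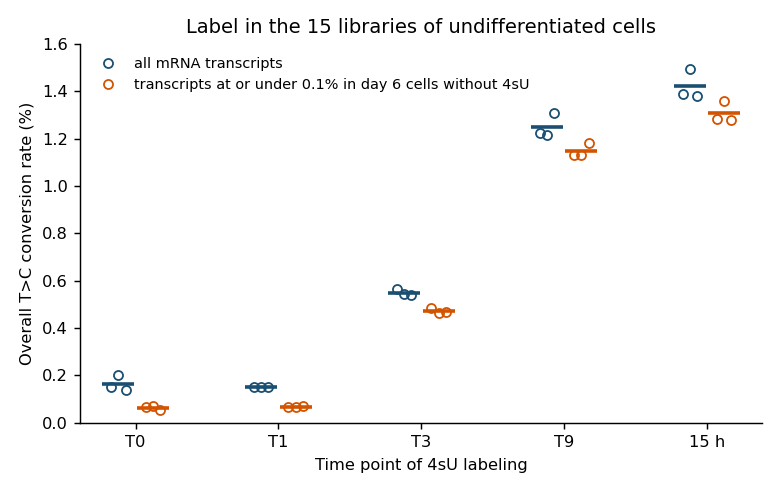
Overall T>C conversion rate (percent of covered T positions) of each of the 15 libraries by time point, over all mRNA transcripts and over those at or under 0.1% in day 6 cells without 4sU. Circles are libraries and lines are means of 3, and the T0 and T1 libraries overlap while T3, T9 and 15 h stand apart from each other.

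The gain of label at each time point was tested against the T0 background. Of 14258 transcripts, 104 (0.729%), from 68 genes, had a higher rate at T1 than at T0, and 13 (0.0912%), from 9 genes, a lower one (edgeR's quasi-likelihood test, adjusted p of at most 0.05). Against the same background 7027 transcripts (49.3%) were higher and 7 (0.0491%) lower at T3, 10084 (70.7%) and 10 (0.0701%) at T9, and 9498 (66.6%) and 31 (0.217%) at 15 h. All 104 transcripts were also higher at T3 and at T9. The T1 counts depended on the tool, the coverage and single libraries. DESeq2 called 949 higher and 507 lower, and edgeR with a minimum of 10000 covered T positions 322 and 96. The higher count was 413, 237 and 229 without T0 replicates 55, 56 and 57, 206 and 162 without T1 replicates 58 and 60, 13, 16 and 13 without T3 replicates 61, 62 and 63, 13 without any of T9 replicates 70 to 72, and 22, 18 and 21 without 15 h replicates 25, 26 and 27.

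Klf6, Lbr, St13, D10Wsu102e and Klhl23 had the smallest p at T1, and all 5 kept the call with each of the 15 libraries left out in turn. Klf6 encodes a zinc finger transcription factor of the immediate early class. Its rates were 0.0154%, 0.0203% and 0.0102% at T0 and 0.329%, 0.322% and 0.293% at T1. The T1 libraries were all above the T0 libraries and close to each other (log2 difference 4.31, SE 0.56, adjusted p = 0.000648 by edgeR's quasi-likelihood test). Klhl23, of the Kelch-like family, had 0%, 0.00909% and 0.00989% at T0 and 0.656%, 0.572% and 0.50% at T1, the highest T1 rates of the 5 genes (log2 6.19, SE 1.08, adjusted p = 0.0110 by edgeR). Lbr, the lamin B receptor of the inner nuclear membrane, had at most 0.00712% at T0 and 0.0851%, 0.0908% and 0.125% at T1. St13, a cochaperone of Hsp70, had at most 0.00458% at T0 and 0.0428%, 0.0575% and 0.0785% at T1. In all 5 genes every T1 library was above every T0 library.

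Ier5, an immediate early gene, rose at T1, from at most 0.0373% to 0.192%, 0.209% and 0.331% (adjusted p = 0.0333 by edgeR). Among 22 immediate early genes with at least 1000 covered T positions 2 gained label at T1. Over all 9094 such genes, by their most covered transcript, 67 did. Of the 104 transcripts, 91 could be placed in the order of uptake described below, of which 16 were earlier and 10 later than the overall rate, against 4.45% and 10% of all 4831 transcripts in that order. St13 was among the later ones, with 0.199%, 0.226% and 0.197% at T3 against 1.2%, 1.2% and 1.40% at 15 h. Among the 5 named genes that were lower at T1, Cd3eap and Dbn1 had the highest T0 rates. Cd3eap, a subunit of RNA polymerase I, had 0.346%, 0.915% and 0.862% at T0 and at most 0.0129% at T1, and Dbn1, the actin binding protein drebrin, had 0.494%, 0.801% and 0.493% at T0 and 0.0576%, 0.141% and 0.0836% at T1. Cd3eap kept the call with each library left out, and Dbn1 lost it without any of T3 replicates 61 to 63 and T9 replicates 70 to 72. Of the 13 lower transcripts, 4 had a mean T0 rate over 0.4%.

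To find which transcripts gained label first and last, the rate at T3 was compared with the rate at 15 h, each relative to the overall rate of its library. A log2 difference above 0 means that the T3 rate of a transcript over its 15 h rate exceeded that of the whole libraries, called earlier. One below 0 means the reverse, called later. Background was not subtracted from these rates, so that 0 does not mark an equal share of the 15 h label after background subtraction. Tubb3, at 0.37, had a share of 26.6% at T3 and Larp1, at -0.28, one of 30.5%, against 30.7% over all mRNA transcripts. In the fit set up for this question, over all 15 libraries, 0 of 12550 transcripts (0%) passed in either direction, with 592 earlier and 261 later at an unadjusted p under 0.05. DESeq2 called 44 earlier and 18 later. A limma fit of the share of the 15 h rate after background subtraction, in the transcripts with a 15 h rate more than 0.1 percentage points above background, called 821 and 306. In simulated data the edgeR fit recovered 0% of transcripts changed by 1 or 2 on the log2 scale. The order was therefore also tested in the 9 labeled libraries, T3, T9 and 15 h, on the 4831 transcripts (3064 genes) with at least 10000 covered T positions and a T0 rate of at most 0.4%. This fit was chosen after seeing the data. In simulated data it recovered 62% to 84% of transcripts changed by 2 and 12% to 22% of those changed by 1.

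In the 9 labeled libraries, 215 transcripts (4.45%), from 137 genes, were earlier and 483 (10%), from 321 genes, later at T3 (edgeR's quasi-likelihood test, adjusted p of at most 0.05). The log2 difference over all 4831 transcripts had a median of -0.18 and ran from -1.17 to 0.94 between the 10% and 90% points. Scaling with TMM factors moved all values up by 0.12 and gave 338 earlier (7%) and 398 later (8.24%), so that the earlier ones were 45.9% of the calls in place of 30.8%. All 215 earlier and 398 of the 483 later transcripts were called under both. A limma fit of these libraries after background subtraction called 662 earlier and 421 later, so that which direction had more calls depended on the fit. The earlier count fell to 107, 114 and 109 without T3 replicates 61, 62 and 63 and to 140 without T9 replicate 70, and the later count ran from 347 to 550. With T9 in place of 15 h as the reference, in the same fit of 9 libraries, 22 (0.455%) were earlier and 114 (2.36%) later. The shallow 15 h libraries are not compared there, but they still enter the spread that the fit estimates. Of the 215 earlier transcripts 17 were called with both references and 212 had the same sign in both. Of the 483 later ones these counts were 110 and 481. Both comparisons use the same T3 libraries.

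The earlier transcripts had a median rate of 0.0350% at T0, 0.0920% at T1, 0.927% at T3, 1.42% at T9 and 1.08% at 15 h. The later ones had 0.0391%, 0.0368%, 0.229%, 0.933% and 1.43%. Their medians were thus alike at T0, differed most at T3, and were reversed in order at 15 h. As a share of the 15 h label after background subtraction, the earlier transcripts stood at a median of 88.1% at T3 and the later ones at 13.5%, against 29.7% (quartiles 18.8% and 47.9%) over the 4828 transcripts with a share. At T9 the shares were 133%, 64.5% and 87.3%, so that the earlier transcripts had more label at T9 than at 15 h. Since these values chose the earlier and later transcripts, they describe them and test nothing. At T9 against 15 h 1 transcript (0.0207%) was earlier and none later in edgeR's quasi-likelihood test, with 249 and 205 at an unadjusted p under 0.05 and 31 and 68 in DESeq2. The 1 transcript is that of Hes1, whose 15 h rates, given below, were not above the background. Without 1 of the 9 libraries the called counts reached at most 10 and 4.

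Coverage moved with the calls. Among transcripts with 10000 to 30000 covered T positions 2.53% were later, among those with 30000 to 100000 15.9%, and among the 312 with 100000 or more 63.1%, while the earlier share was 3.68%, 5.54% and 8.01%. The median log2 difference itself fell from -0.03 to -0.34 and -0.78 over the same classes, so that highly covered transcripts were later on average and not only more often called. The part of coverage in the calls was not tested. In transcripts with 1000 to 3000 covered positions, which were not placed in the order, 55.5% of the 15 h values were 0 against 20.2% at T9.

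**Figure D2:**
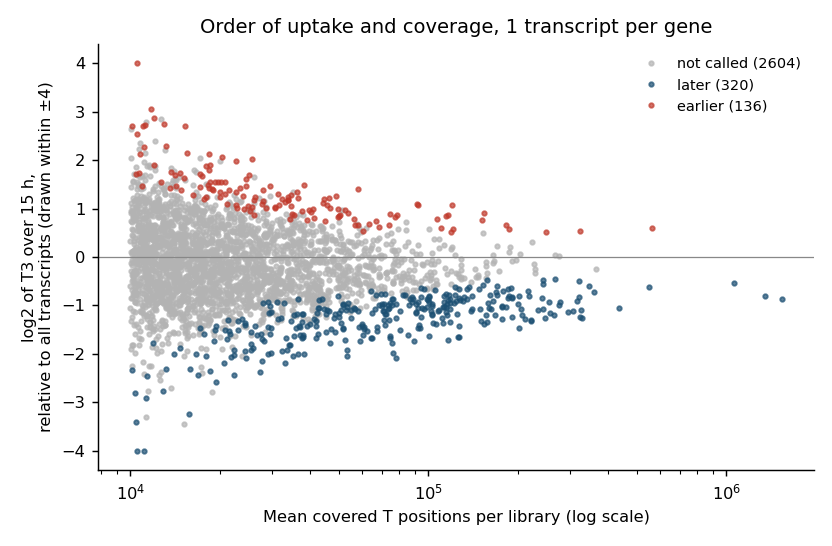
Log2 of T3 over 15 h relative to all transcripts (vertical axis, drawn within ±4) against the mean covered T positions per library (log scale), 1 point for the most covered transcript of each of 3060 genes. The 136 earlier genes lie above 0 at all coverages, and the 320 later ones become more frequent to the right.

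The named early genes were the 12 with the largest difference among called genes with at least 30000 covered T positions, namely Zc3h18, Klf6, Ier5, Cdt1, Daxx, Zfp462, Crk, Tab2, Zfhx3, Exosc6, Tsr1 and Zmiz1. Their log2 differences ran from 1.18 to 1.5, and they had reached 84.6% to 107% of the 15 h label at T3. Their rates lay between 0.623% and 1.32% in the T3 libraries, between 0.889% and 2.28% at T9 and between 0.162% and 2.07% at 15 h. Cdt1, Ier5, Zfhx3 and Zmiz1 kept the call with each of the 9 libraries left out, and the other 8 lost it without 1 or more of them. Klf6 lost it without T3 replicate 63, Zfp462 and Tsr1 without 62, Exosc6 without 61, Daxx without 61, 63 or 15 h replicate 25, Tab2 without 61, 62 or 15 h replicate 26, Crk without any T3 replicate, T9 replicate 70 or 15 h replicates 25 and 26, and Zc3h18 without any T3 or T9 replicate or 15 h replicate 25. None of the 12 was called with T9 as the reference.

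Klf6, a zinc finger transcription factor with a 3′ UTR of 3110 nt at chr13:5867284-5870393 (+ strand), had 0.756%, 0.888% and 1.28% at T3, 1.65%, 1.15% and 2.13% at T9 and 1.33%, 1.19% and 0.340% at 15 h. It had already passed the lowest 15 h library at T3, although 1 of the 15 h libraries was far under the others (log2 1.41, SE 0.36, adjusted p = 0.0158 by edgeR). Zfp462, a zinc finger protein of pluripotent and neural cells, had 1.23%, 1.26% and 0.820% at T3 against 0.771%, 2.07% and 0.825% at 15 h. Cdt1, the licensing factor that loads the replicative helicase and is destroyed in S phase, had 1.27%, 0.623% and 1.14% at T3 against 1.10%, 0.925% and 1.14% at 15 h (log2 1.31, SE 0.30, adjusted p = 0.00795 by edgeR). In both genes the T3 and 15 h libraries overlapped, and whether 15 h was a final level was not tested.

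The immediate early genes are transcription factors and signaling genes induced within minutes by growth factors. Of 8 tested, 4 were earlier, none later, and the median log2 difference was 0.76 against -0.22 over all 3060 genes, of which 136 (4.44%) were earlier and 320 (10.5%) later. With T9 as the reference none of the 8 was earlier, against 15 of all 3060 genes, and the median was 0.57 against -0.22 over all genes. The 4 were Klf6, Ier5, Jun and Ccn2. Ier5 had 0.883%, 1.19% and 1.12% at T3 and 1.52%, 1.24% and 0.499% at 15 h (log2 1.35, SE 0.32, adjusted p = 0.0106 by edgeR). Jun, a subunit of the AP-1 transcription factor, had 0.852%, 0.753% and 1.24% at T3 and 0.516%, 1.29% and 1.10% at 15 h, and its T0 libraries ran from 0.0530% to 0.472%. Jun lost the call without T3 replicates 61 or 63, T9 replicates 70 or 71 or 15 h replicate 25, and the count for the list ran from 2 to 4 with 1 library left out.

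Of 14 pluripotency factors tested, 3 were earlier, among them Sox2 and Sall4, and none later, with a median of 0.47, and 3 were earlier with T9 as the reference. Sox2, which maintains pluripotency together with Pou5f1, has its 3′ UTR at chr3:34651376-34652461 (+ strand, 1086 nt). Its rates were 1.18%, 1.07% and 1.07% at T3, 1.22%, 1.54% and 1.19% at T9 and 1.81%, 1.23% and 1.00% at 15 h. It had 81.2% of its 15 h label at T3 and gained little more by T9 (log2 1.08, SE 0.20, adjusted p = 0.00154 by edgeR). Sox2 kept the call with each library left out and with T9 as the reference (adjusted p = 0.0161 by edgeR). Lin28a and L1td1, which are as typical of these cells, lay near the overall rate at -0.08 and 0.02, and Dnmt3b at -0.75 did not pass the test.

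In the Notch, Hes and Id list, 3 of 5 genes were earlier, namely Hes1, Id2 and Id3, with a median of 0.90, and 1 was with T9 as the reference. Hes1, the transcriptional repressor downstream of Notch whose mRNA oscillates, had 1.02%, 0.747% and 0.949% at T3, 0.997%, 0.928% and 1.04% at T9, and 0.0178%, 0% and 0.0162% at 15 h. At T0 it had 0.00983%, 0.349% and 0.398%. Its 15 h rates were thus not above the background, so that it had no share of the 15 h label, and no difference is given for its call. The count and median of the list include Hes1. Apart from it, Id3 was at 1.07, Id2 at 0.90, Rbpj at 0.41 and Maml1 at 0.02. Id3, an inhibitor of basic helix-loop-helix factors, had 0.945%, 0.875% and 0.644% at T3 and 1.03%, 0.516% and 1.37% at 15 h, and lost the call without T3 replicates 61 or 62 or 15 h replicates 25 or 26. Of the 4 feedback inhibitors of TGF-beta, Wnt and FGF signaling tested, Spred1 and Skil were earlier. All 4 were above 0, against 1215 of all 3060 genes, with a median of 1.11. But Spred1 and Skil lost the call without T3 replicates 61 or 62, T9 replicate 70 or 15 h replicates 25 or 26. Skil lost it without T3 replicate 63 as well. None of the 4 was earlier with T9 as the reference.

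Zinc finger proteins of the Zfp family are in many cases transcriptional repressors. Of 26 tested, Zfp423, Zfp462 and Zfp871 were earlier and none later. Above 0 were 21 of the 26, against 1215 of all 3060 genes, and the median was 0.69. Among 18 E3 ligase adaptors and ubiquitin genes, 3 were earlier, among them Rnf4 and Socs6, and none later, with a median of 0.43. Rnf4, a ubiquitin ligase that recognizes SUMO chains, had 0.835%, 1.29% and 1.07% at T3 and 0%, 1.07% and 0.364% at 15 h. Rnf4 lost the call without any of the T3 or T9 libraries or 15 h replicate 27, and Socs6 lost it without 8 of the 9 libraries. With 1 library left out the counts ran from 1 to 5 in the Zfp list and from 0 to 4 in the ubiquitin list, and with T9 as the reference they were 0 and 1.

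The named late genes were Cox7b, Uqcrq, Cops9, Psmd13, Lsm7, Khdrbs1, Cox4i1, Snrnp200, Hsbp1, Mrto4, Atp6v0e and Selenoh, with log2 differences from -2.20 to -1.81. They had between 0.0439% and 0.287% in the T3 libraries, between 0.328% and 1.47% at T9 and between 0.416% and 2.55% at 15 h, and no more than 9.60% of their 15 h label at T3. Of these 12, 11 kept the call with each of the 9 libraries left out, the exception being Cox7b, which lost it without T3 replicates 61 or 63 or 15 h replicate 25. Uqcrq, Snrnp200 and Mrto4 were also called with T9 as the reference.

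The nuclear-encoded genes of oxidative phosphorylation build subunits of the respiratory chain and the ATP synthase. Of 42 tested, 16 (38.1%) were later and none earlier, and 40 were below 0, against 1845 of all 3060 genes. The median log2 difference was -1.11, and the median at T3 was 13.8% of the 15 h label. The later count was 10 to 17 with 1 library left out, and with T9 as the reference it was 1, against 73 of all 3060 genes. Uqcrq, a subunit of complex III, had 0.138%, 0.103% and 0.0819% at T3, 0.549%, 0.650% and 0.833% at T9 and 0.843%, 0.842% and 1.82% at 15 h. Its T3 libraries overlapped with its T0 libraries, which had 0.148%, 0.115% and 0.0865% (log2 -2.08, SE 0.34, adjusted p = 0.000566 by edgeR). Cox4i1, a subunit of cytochrome c oxidase, had 0.0985%, 0.0501% and 0.0933% at T3 and 1.28%, 0.763% and 0.416% at 15 h.

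Of 22 large and 8 small ribosomal protein genes tested, 9 and 3 were later and none earlier, with medians of -1.04 and -1.11. Below 0 were 21 and 8 of them, against 1845 of all 3060 genes. With T9 as the reference 1 of the large and 0 of the small ones were later. Most ribosomal protein transcripts could not be placed, as 49 and 33 names are on the lists. Rpl4, a protein of the large subunit, had 0.0441%, 0.0143% and 0.0378% at T0 and 0.0191%, 0.0395% and 0.0263% at T1. It then rose to 0.228%, 0.237% and 0.164% at T3, 0.768%, 0.785% and 0.857% at T9 and 1.21%, 1.29% and 1.36% at 15 h. From T1 on no library of a time point overlapped with those of the next, and Rpl4 had 14.2% of its 15 h label at T3 (log2 -1.25, SE 0.15, adjusted p = 4.5e-05 by edgeR). Rps14, of the small subunit, had 0.239%, 0.129% and 0.134% at T3 and 0.795%, 1.06% and 1.10% at 15 h. Ribosomal proteins have many processed pseudogenes, and how reads that match both were counted was not checked.

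Of 29 translation factors 12 were later and none earlier, with a median of -0.87. They include the elongation factors Eef1a1 (-1.17) and Eef2 (-1.05), the helicase Eif4a1 (-1.12) and the poly(A) binding protein Pabpc1 (-1.59). Pabpc1 had 0.200%, 0.268% and 0.201% at T3 and 1.69%, 2.76% and 0.858% at 15 h, and lost the call without T3 replicates 61 or 63 or 15 h replicate 26. With 1 library left out the later count was 5 to 9 of the large and 2 to 3 of the small ribosomal proteins and 6 to 11 of the translation factors, and with T9 as the reference 3 translation factors were later. Larp1, which binds the 5′ oligopyrimidine motif of these transcripts, was not called itself. It had 0.460%, 0.493% and 0.496% at T3, 1.49%, 1.37% and 1.43% at T9 and 2.11%, 1.22% and 1.2% at 15 h (log2 -0.28, adjusted p = 0.318 by edgeR).

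The proteasome degrades proteins marked with ubiquitin. Of 26 proteasome genes 11 were later and none earlier, with a median of -0.97. The later count was 7 to 11 with 1 library left out and 4 with T9 as the reference. Psmb7, a catalytic subunit of the core, had 0.191%, 0.119% and 0.154% at T3 and 1.13%, 1.45% and 1.24% at 15 h, groups that lie far apart (log2 -1.67, SE 0.26, adjusted p = 0.000458 by edgeR). Of 15 chaperonin and heat shock genes 8 were later, with a median of -0.81, and 5 to 9 were with 1 library left out and 4 with T9 as the reference. Hspe1 and Hspd1, the partners of the mitochondrial chaperonin, had differences of -1.71 and -1.68. Hspe1 had 0.182%, 0.206% and 0.130% at T3, 0.754%, 0.679% and 1.08% at T9 and 1.75%, 1.46% and 1.18% at 15 h. Dnajb1, an inducible heat shock gene on the same list, had a difference of 1.79 that did not pass the test.

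Of 19 tubulin and actin cytoskeleton genes 11 were later and none earlier, with a median of -0.73, among them Tagln2 (-1.61), Tuba1a (-1.14), Vim (-0.87) and Actb (-0.53). With T9 as the reference 2 of the 19 were later. Of 12 glycolysis genes Aldoa, Gpi1 and Pkm were later, with a median of -0.91. The count was 2 to 4 with 1 library left out and 2 with T9 as the reference, and Gpi1 lost the call without T3 replicates 61 or 63 or 15 h replicate 25. Aldoa, the aldolase of glycolysis, had 0.125%, 0.115% and 0.182% at T3 and 1.15%, 0.787% and 1.45% at 15 h. Of 30 SR and hnRNP splicing factors 7 were later and none earlier, with a median of -0.36, and 3 were later with T9 as the reference. Of 39 mitochondrial ribosomal proteins 3 were later (7.69%, near the share over all genes), with a median of -0.59. The count was 1 under TMM scaling, 0 with T9 as the reference and 1 to 4 with 1 library left out. Among 4 neuronal markers tested, Gap43 and Stmn2, which are needed for axon growth and microtubule dynamics, were later (-0.86 and -0.97), while Ncam1 (-0.96) and Tubb3 (0.37) were not called. Gap43 lost the call without T3 replicates 62 or 63 or 15 h replicate 25, and Stmn2 without any T3 or T9 replicate or 15 h replicate 26. None of the 4 was later under TMM scaling or with T9 as the reference. Map2 had too few covered T positions to be placed.

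Of 31 nucleolar ribosome biogenesis factors, Tsr1 and Wdr43 (6.45%) were earlier and Mrto4, Ncl and Npm1 (9.68%) later, shares near those over all genes. The counts were 1 to 3 and 2 to 5 with 1 library left out, and 0 and 1 with T9 as the reference. Wdr43, of the small subunit processome, had 0.736%, 1.07% and 0.760% at T3 and 1.12%, 1.19% and 1.27% at 15 h (log2 0.90, SE 0.19, adjusted p = 0.00399 by edgeR). Mrto4, an assembly factor of the large subunit, had 0.154%, 0.167% and 0.221% at T3 and 1.70%, 2.55% and 1.11% at 15 h (log2 -1.92, SE 0.36, adjusted p = 0.00184 by edgeR). Of 33 genes of the mRNA decay machinery 3 were earlier and 3 later (9.09% each). The deadenylase subunit Cnot8 and the Argonaute partners Tnrc6a and Tnrc6c were earlier, while Tnrc6b (0.37) was not called. Lsm3, Lsm6 and Lsm7 of the Sm-like proteins were later, while Lsm1 (0.13), Lsm2 (-0.22) and Lsm4 (-0.69) were not called. The earlier count was 1 to 4 with 1 library left out, and Tnrc6c lost the call without 7 of the 9 libraries. With T9 as the reference 0 of the 33 were earlier and 2 later. Of 35 genes of mitosis and cyclins, Aurka, Cdc25a, Cdk1 and Sgo2a were earlier and Ccnd3 later, and 0 to 3 were earlier with 1 library left out. With T9 as the reference 0 of the 35 were earlier and 1 later. Of 28 DNA replication genes 1 was earlier and 1 later, and of 9 cholesterol synthesis genes and 4 of the Myc network none was called. The medians of the mitosis, replication, mRNA decay and cholesterol lists lay between -0.07 and -0.01 and changed sign under TMM scaling. Those of the other lists with at least 4 tested genes kept theirs. As TMM scaling moved all values up by 0.12, this follows from the shift and tests nothing about the lists. No list was tested as a set, and coverage differs between the lists.

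**Figure D3:**
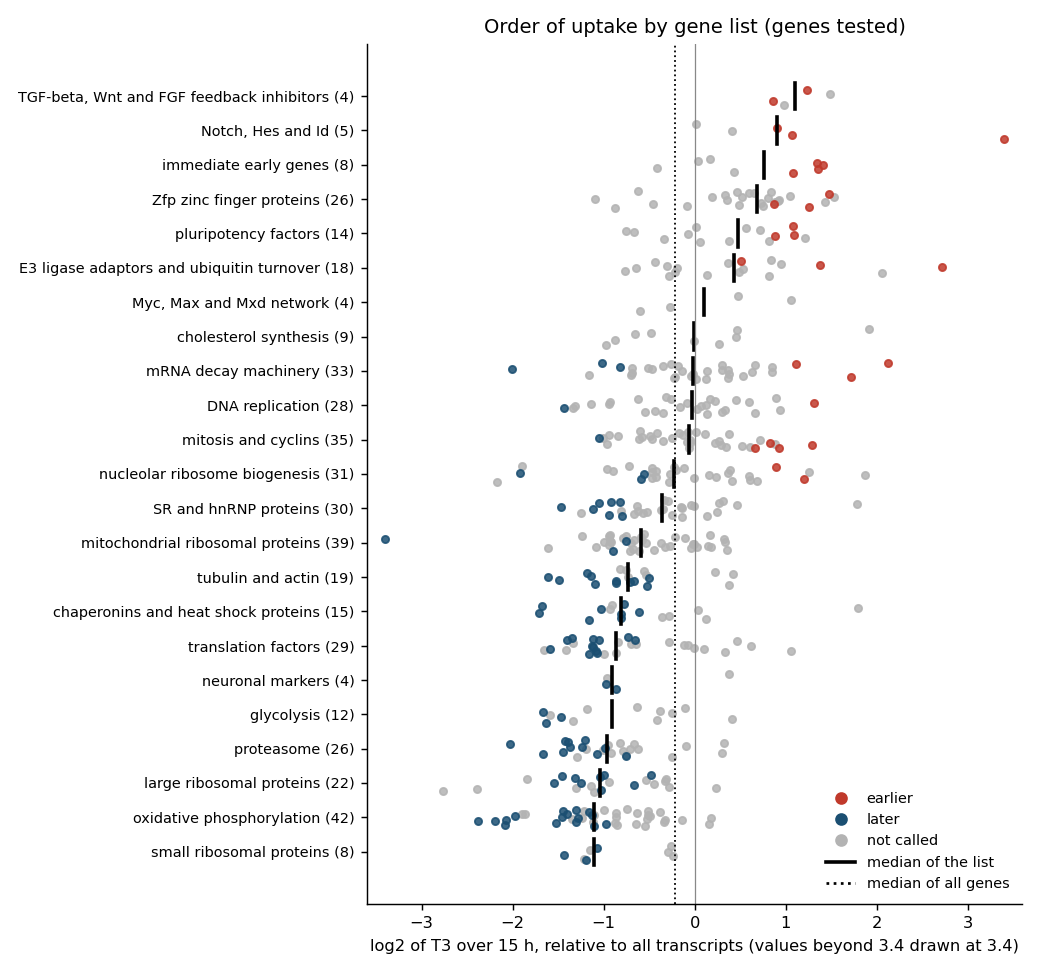
Log2 of T3 over 15 h relative to all transcripts for each tested gene of the lists with at least 4 such genes, with a mark for the list median. Called genes are colored and values beyond 3.4 are drawn at 3.4. The medians of the oxidative phosphorylation, glycolysis, ribosomal protein and proteasome lists lie below 0. Those of the immediate early, Notch, Hes and Id, and feedback inhibitor lists lie above 0, and that of cholesterol synthesis lies near 0. Single genes of some lists lie on the other side.

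**Figure D4:**
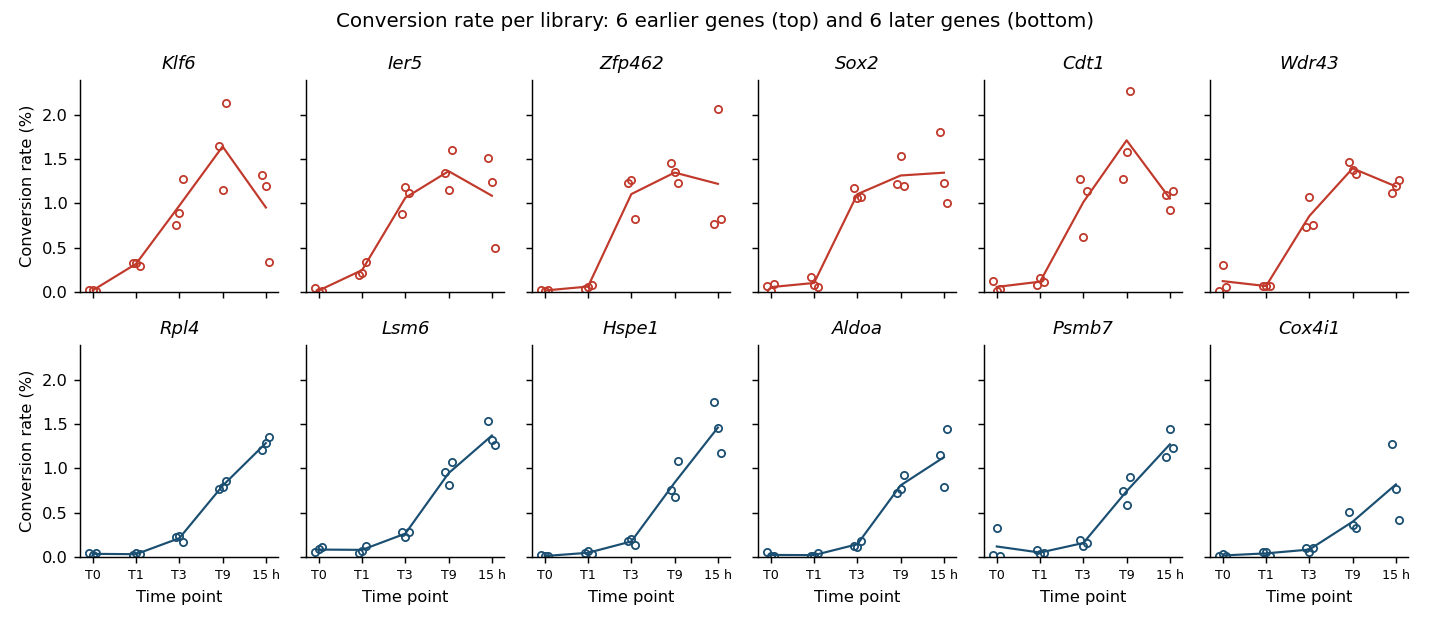
T>C conversion rate (percent) in every library by time point for 6 early genes (Klf6, Ier5, Zfp462, Sox2, Cdt1 and Wdr43) and 6 late genes (Rpl4, Lsm6, Hspe1, Aldoa, Psmb7 and Cox4i1), with lines through the means of 3. At T3 the early genes had 68.7% to 102% of their 15 h label after background subtraction and the late genes 3.38% to 14.2%.

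The 3′ UTRs of the early and late genes differed in length. The median was 2065 nt in the 136 earlier genes, 444.5 nt in the 320 later genes and 1136 nt in all 3060 genes tested, with 30.5%, 29.9% and 30.04% T. To see which short sequences they hold, the transcript strand was searched for TATTTAT, the core of the AU-rich element bound by proteins of the ZFP36 family, and for TGTANATA, the site of Pumilio proteins, where N is any base. TATTTAT was present in 50 of 102 earlier genes with a sequence (49.0%), 23 of 230 later genes (10%) and 607 of 2201 genes tested (27.6%). TGTANATA was present in 57 (55.9%), 25 (10.9%) and 567 (25.8%) of the same genes. Over 14258 mRNA 3′ UTRs, 1 per gene, the shares were 22.6% and 19.6%.

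Longer 3′ UTRs hold more matches by length alone. Per kb, TATTTAT occurred 0.324 times in earlier, 0.147 times in later and 0.272 times in all genes tested, and TGTANATA 0.381, 0.159 and 0.245 times. Within 3′ UTRs of 1000 to 2000 nt, TATTTAT was in 18 of 35 earlier and 4 of 37 later genes (51.4% and 10.8%, against 33.2% of all) and TGTANATA in 18 and 5 (51.4% and 13.5%, against 25.6%). From 2000 nt on, TATTTAT was in 57.1% of earlier, 38.9% of later and 51.6% of all genes, and TGTANATA in 65.3%, 44.4% and 50.4%. A match is a description of the sequence and does not show that a protein binds it.

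The following sites are shown because they are matches of early genes whose rates are given above. The motif is in capitals, with 9 bases on each side, 5′ to 3′ on the transcript strand, read from GENCODE M21 transcripts at mm10 positions. They are examples, and some of these genes hold further matches. The site shown for Klf6 is at chr13:5868492-5868516 (+ strand), Jun at chr4:95049081-95049105 (- strand), Sox2 at chr3:34651824-34651848 and chr3:34652341-34652366 (+ strand), Ier5 at chr1:155097655-155097680 (- strand), Zfp462 at chr4:55083074-55083099 (+ strand), Cdt1 at chr8:122573007-122573032 (+ strand) and Wdr43 at chr17:71657831-71657856 (+ strand).
Klf6, TATTTAT: tacgtctctTATTTATgccttgagg
Jun, TATTTAT: gcttgtgcaTATTTATaatagcgtt
Sox2, TATTTAT: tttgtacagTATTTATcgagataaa
Sox2, TGTANATA: gagaatccaTGTATATAtttgaacta
Ier5, TGTANATA: ttatggcttTGTAGATAaggtgactc
Zfp462, TGTANATA: caaataacaTGTAAATAttgtaatcc
Cdt1, TGTANATA: tgggccttcTGTAAATAtgtgaagtg
Wdr43, TGTANATA: ctttaactgTGTAAATAagagtgttt

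Late genes can hold the same motifs, and 2 such sites are given for comparison. Mrto4, with a 3′ UTR of 216 nt, has TATTTAT at chr4:139347531-139347555 (- strand), and Lsm6, with an unusually long 3′ UTR for a late gene of 3343 nt, has it at chr8:78804986-78805010 (- strand) and holds TGTANATA as well.
Mrto4, TATTTAT: gggaacagcTATTTATtttgctatg
Lsm6, TATTTAT: aagtctggcTATTTATaggagaaag
The letters of neither motif occur in the 3′ UTR of Rpl4 at chr9:64178445-64178562 (118 nt) or in that of Psmb7 at chr2:38588046-38588176 (131 nt).

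The order of uptake was set beside the loss of label in libraries that it did not use. In the catabolic assay 4sU is washed out after 15 h, and the rate at T9 was compared with that at T1, relative to the overall rate. Values below 0 mark a larger fall of the rate than in the whole libraries, called faster, and those above 0 a smaller one, called slower. Background was not subtracted here either, so that 0 does not mark an equal loss of label. Of the 4831 transcripts of the order fit 72.3% were below 0. Over 12550 transcripts 1086 (8.65%) were faster and 317 (2.53%) slower (edgeR's quasi-likelihood test, adjusted p of at most 0.05). Of the 215 earlier transcripts 78 (36.3%) were faster and 1 slower, with a median log2 difference of -1.72. Of the 483 later transcripts 18 (3.73%) were faster and 167 (34.6%) slower, with a median of 0.48. The 4831 transcripts of the order fit had 794 (16.4%), 308 (6.38%) and -0.80. Across these transcripts, which are not independent replicates, share libraries and overlap in sequence, uptake and decay had a Pearson r of -0.44 and a Spearman rho of -0.48. Both moved with coverage. From transcripts with 10000 to 30000 covered T positions to those with 100000 or more, the median decay difference went from -0.98 over -0.65 to 0.21, and that of uptake from -0.03 over -0.34 to -0.78. The part of coverage in the correlation was not tested. The faster count over all transcripts was 404, 444 and 416 without T1 replicates 28, 29 and 30, 717 without T3 replicate 33 and 1741 without T9 replicate 35, and the slower count 191, 179 and 176 without the same T1 replicates.

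Among the early genes, Klf6 (log2 -2.91, adjusted p = 0.00736), Exosc6 (-3.03, 0.00551) and Wdr43 (-2.23, 5.62e-05) lost label faster than the overall rate by edgeR's quasi-likelihood test. Zfhx3, which encodes a large homeobox factor, was early without it (log2 0.10, adjusted p = 0.912). Of the 12 named early genes 7 were faster and none slower, and of the 12 named late genes 6 were slower and none faster. Rpl4 (log2 1.19, adjusted p = 6.04e-07), Rps14 (1.5, 7.74e-06), Hspe1 (1.12, 7.49e-05) and Uqcrq (1.33, 0.000412) lost label more slowly. By list, 24 of 42 oxidative phosphorylation genes, 14 of 22 and 4 of 8 ribosomal protein genes and 8 of 26 proteasome genes were slower and none was faster. Translation factors went both ways, with 5 faster and 10 slower of 29, as did chaperonins and heat shock genes with 1 and 3 of 15 and glycolysis genes with 1 and 2 of 12. Of 19 tubulin and actin genes 5 were slower and none faster, and of 30 SR and hnRNP genes and of 39 mitochondrial ribosomal proteins 2 each were faster and none slower. Of 14 pluripotency genes 6 and of 35 mitosis genes 14 were faster and none slower, against 489 faster and 205 slower of all 3060 genes. Larp1 lost label faster (log2 -1.68, adjusted p = 2.01e-06 by edgeR) although its uptake was near the overall rate.

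**Figure D5:**
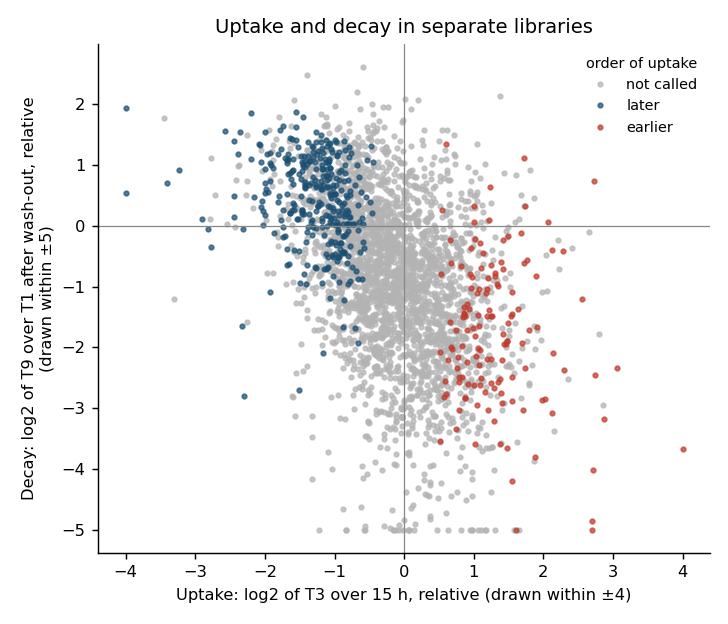
Loss of label after wash-out (log2 of catabolic T9 over T1, relative to all transcripts, drawn within ±5) against order of uptake (log2 of T3 over 15 h, drawn within ±4), 1 point per gene. Earlier genes lie mostly at the lower right (median of 215 transcripts -1.72) and later genes mostly at the upper left (median of 483 transcripts 0.48).

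Synthesis half-lives were estimated from a saturating exponential fitted to the rate over the 15 h rate, with hours 0, 3, 6 and 9 for the 4 time points. Fits with R squared over 0.6 were kept for 3179 of 14258 transcripts (22.3%), with a median half-life of 415 min (quartiles 315 and 550 min). With hours 0, 1, 3 and 9 of the labels, 6270 fits were kept and the median was 247 min, so that the scale of these values depends on which hours hold. In the order fit, 105 of the 215 earlier transcripts had a kept fit with a median of 228 min, and 300 of the 483 later ones a median of 614 min, against 412 min over 2418 of all 4831. Both measures come from the same rates. Sox2 had 228 min, Ier5 150 min, Rpl4 664 min, Hspe1 758 min and Cox4i1 905 min, while Klf6 and Hes1 had no kept fit.

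Transcript levels were compared over the anabolic course to see whether they moved while label was taken up. Between T9 and T0, 0 of 18136 transcripts (0%) passed in either direction by edgeR's quasi-likelihood test, with 753 higher and 452 lower at an unadjusted p under 0.05 and 104 and 9 called by DESeq2. Without T0 replicates 55, 56 and 57 edgeR called 82, 7 and 5 higher, and 5 lower without replicate 55. The median log2 difference in reads was 0.05 in the earlier, -0.08 in the later and -0.02 in all transcripts.

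The order of uptake was compared with that of D6 cells, which received 500 µM 4sU. At D6 the overall rate was 1.61% to 2.26% at T3, 2.97% to 4.16% at T9 and 4.24% to 4.89% at 15 h. In a fit of the libraries of both courses the difference between the states in T3 against 15 h passed for 0 of 12601 transcripts (0%) by edgeR's quasi-likelihood test, with 576 and 179 at an unadjusted p under 0.05 and 11 and 1 called by DESeq2. In the 18 labeled libraries of both states with a minimum of 10000 covered T positions, both chosen after seeing the data, 1 of 2593 transcripts (0.0386%), Lrrc42, was later at D0 than at D6 and none earlier (89 and 39 at an unadjusted p under 0.05).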

How the data were processed

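Per the labels and methods, libraries were made from total RNA with the QuantSeq 3′ FWD kit, which reads the 3′ end of transcripts. The authors aligned reads to mm10 with SLAMdunk, masked polymorphisms and counted over 3′ UTR intervals, and the deposited files hold raw counts for each interval (reads, reads with a T>C conversion, conversions and covered T positions). The deposited conversion rate (a fraction) and the deposited reads as CPM, both computed by the authors, were not used, and CPM values in the text were computed from the counts. The methods name GENCODE intervals but the files carry RefSeq names. Counts of a transcript with several intervals were added up, and transcripts with a common 3′ UTR have common counts.

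Conversions were tested in R 4.3.3 with edgeR 4.0.16 (quasi-likelihood test, Benjamini-Hochberg adjustment at 0.05), with the log of covered T positions as offset for gain of label, times the overall rate of the library for order and decay. Alternatives used DESeq2 1.42.0, limma 3.58.1 on the share of the 15 h rate after background subtraction, other minimums of 300, 10000 and 30000 covered T positions, TMM factors, other references and hours, and each library left out. Overall rates and half-life fits used Python 3.11.15, numpy 2.4.6, scipy 1.17.1 and pandas 2.3.3, and figures matplotlib 3.10.9. The planned order fit over all 15 libraries had no power in simulated data, with 200 transcripts changed, so that the fit of the 9 labeled libraries was added after seeing the data. The scripts were tested on simulated data.

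Named genes were, for the most covered transcript per gene, the 12 largest and 12 smallest order differences among calls, the 5 smallest p at T1 per direction, the 2 earliest and 2 latest calls of each of 24 lists, 3 genes that the study names and the day 6 call. As no transcript passed the planned order fit, the rule was applied to the labeled libraries, with minimums of 30000 (12 per end) and 10000 covered T positions (lists) in place of 5000, chosen after seeing values. Other genes are named as members of a short count or as contrast and were chosen after their values were seen. The comparison, members and lists were chosen with earlier results of these data known. In simulated data the labeled fit called 0.130% of unchanged transcripts. These data were drawn from the fitted model and held no separate background, so that this share does not cover any effect of background on the calls. 3′ UTR sequences were read from GENCODE M21 for 20617 of 26737 single-interval transcripts, and their number of T equalled the deposited T content in all 20617. As no molecular identifiers were used, errors are those between libraries. The 15 h libraries are the shallowest (4846669 to 6624258 reads summed over transcripts, against 7654680 to 16527477 in the others). This can make values relative to 15 h less precise, which was not tested. Lists with fewer than 4 tested genes are not described, except that of decay regulators and p53 targets, of which 2 genes were tested and none called. Some named genes and most of the sequence sites found are not reported here.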

Additional observations from a re-analysis of the deposited data

Results flagged for a closer look

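Lrrc42 (leucine-rich repeat containing 42) was flagged because its rate at T3 relative to 15 h differed between undifferentiated and D6 cells by a test of the difference itself, in the 18 labeled libraries of both states and at a minimum of 10000 covered T positions (log2 undifferentiated minus D6 -1.75, SE 0.30, adjusted p = 0.0453 by edgeR's quasi-likelihood test). Undifferentiated cells had 0.352%, 0.357% and 0.363% at T3 and 1.28%, 1.86% and 1.30% at 15 h, and D6 cells 3.32%, 3.58% and 3.42% at T3 and 3.86%, 4.29% and 3.56% at 15 h. The T3 libraries lay far below those of 15 h in undifferentiated cells and close to them at D6, where the dose of 4sU was 500 µM in place of 20 µM. Lrrc42 was later than the overall rate in undifferentiated cells (log2 -0.67), lost without T3 replicate 61, although its label was lost faster there (log2 -1.92, adjusted p = 5.76e-06 by edgeR). It was 1 of 2593 transcripts tested, and the part of the dose was not tested.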

How the results depend on the processing

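No paired analysis was possible because the replicate numbers of the labels are not shared between groups. For the gain of label, a minimum of 10000 covered T positions gave 322 higher and 96 lower at T1, 3470 higher at T3, 4776 at T9 and 4852 at 15 h. DESeq2 gave 949 higher and 507 lower at T1, and 1 transcript per gene 4399 higher at T3, 6370 at T9 and 6010 at 15 h. With 1 library left out, the counts ran from 13 to 413 higher and 1 to 168 lower at T1, and stayed between 5589 and 7270 at T3, 8636 and 10172 at T9 and 8247 and 9622 at 15 h. For the order of uptake over all 15 libraries, DESeq2 gave 44 earlier and 18 later at T3 and 13 earlier at T9, no maximum of the T0 rate 9 and 1 at T3, limma after background subtraction 821 and 306 at T3, and the 9 labeled libraries with a minimum of 10000 covered T positions 215 and 483 at T3 and 1 earlier at T9. With 1 library left out these counts were 0, except for 0 to 2 later at T3. In the 9 labeled libraries, the earlier count at T3 was 139 at a minimum of 30000, 428 with DESeq2, 140 for 1 transcript per gene, 350 with no maximum of the T0 rate, 662 with limma after background subtraction, 338 with TMM factors and 22 with T9 as the reference, and the later count 824 with DESeq2 and 114 with T9 as the reference. With 1 library left out they ran from 107 to 270 and from 347 to 550. At T9 the earlier count was 0 at a minimum of 30000 and for reads with a conversion, 31 with DESeq2 and 2 with limma after background subtraction, the later count 1 at 30000, 68 with DESeq2 and 1 with TMM factors, and with 1 library left out they ran from 0 to 10 and from 0 to 4. For decay, DESeq2 gave 2429 faster, and leaving out 1 library 404 to 1741 faster and 176 to 406 slower. For reads, DESeq2 gave 104 higher and 9 lower, and leaving out 1 library 0 to 82 and 0 to 5. For the difference to D6 over all libraries, DESeq2 gave 11 earlier and 1 later at D0, and leaving out 1 library 0 and 0 as in the full fit. The 18 labeled libraries at a minimum of 10000 covered T positions gave 1 later, and no library was left out of that fit. Half-lives were kept for 6270 transcripts with a median of 247 min under the hours of the labels and for 13508 with a median of 314 min at any R squared, and for 2618 to 3777 with medians of 388 to 444 min with 1 library left out. The overall rate over transcripts with a low D6 background was 0.0640% at T0, 0.0682% at T1, 0.471% at T3, 1.15% at T9 and 1.31% at 15 h, and 0.160% at T1 over all intervals listed once. With 1 library left out the overall rate over all transcripts stayed between 0.144% and 0.176% at T0, 0.151% and 0.152% at T1, 0.541% and 0.554% at T3, 1.22% and 1.27% at T9 and 1.38% and 1.44% at 15 h. Where a count changed, the cause was not tested. Among the named genes, 498 values of the order at T3 kept their side of the threshold and 81 did not, and with 1 library left out 470 kept it and 123 did not. The difference of Larp1, which was not called, changed sign to 0.0621 without 15 h replicate 25 and ran from -0.444 to 0.0621 with 1 library left out. At T1, 49 values kept their side, and with 1 library left out 116 kept it and 34 did not. The order of uptake in the 9 labeled libraries was tested in transcripts with at least 10000 covered T positions and a T0 rate of at most 0.4%, and a minimum of 1000 gave 220 earlier and 396 later at T3.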
